A study of Mus musculus with 24 samples.

Results

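The enzymes and transporters that carry glucose to pyruvate and lactate, and pyruvate through the citric acid cycle, were followed in whole mouse brain as a list of 39 genes, chosen by name. The list holds the hexokinases and phosphofructokinases, the triose enzymes, the lactate dehydrogenases and monocarboxylate carriers, the pyruvate carrier, the pyruvate dehydrogenase complex with its kinases, pyruvate carboxylase and the cycle itself. A probe set of a single gene symbol was found for 36 of the 39. None was found for Gpi1, Eno1 or Mpc2, and Gapdh was read only by control probe sets, which were kept out of the model. The other 35 genes were tested among 12929, each by the brightest of its probe sets. These 36 genes had 84 probe sets, of which 71 were tested, 6 were left out as dim and 7 were controls.

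Glycolysis splits glucose into pyruvate in the cytosol and yields a little ATP. Pyruvate is then either turned to lactate, which leaves the cell through monocarboxylate carriers, or taken into mitochondria, where pyruvate dehydrogenase makes the acetyl-CoA that feeds the citric acid cycle. The brain runs almost wholly on glucose. Astrocytes are known for strong glycolysis and lactate release, and neurons for oxidising pyruvate and lactate in mitochondria.

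The 24 samples, each total RNA of a whole brain at 4 months of age, were hybridised to 1 Affymetrix array each and formed 4 groups of 6. The groups were wt, aSYN only, Hsp70 only, and aSYN with Hsp70 together (aSYN/Hsp70). aSYN is not spelled out in the labels and is read here as alpha-synuclein. The sources used here give neither the strain nor a promoter, nor how each genotype was made. The labels do not state whether each sample was a separate animal, and the p-values therefore reflect only the variation among these 24 samples, which may be technical. Values are log2(intensity + 16) after quantile normalisation, differences are differences of such means, and adjusted p-values are those of limma with Benjamini-Hochberg adjustment over 27022 probe sets, called under 0.05.

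Markers of neurons, astrocytes, microglia, endothelium and choroid plexus were each measured for 6 of 6 genes and those of oligodendrocytes for 5 of 6, while 1 of 5 red blood cell and 3 of 6 skeletal muscle genes passed the filter on dim probe sets. By limma's array weights, 4 arrays stood apart from the rest: replicates 4 (weight 0.124) and 3 (0.394) of aSYN/Hsp70, and replicates 3 (0.251) and 6 (0.332) of Hsp70. Values without these 4 are given beside many of the member results, but not for every gene named, nor for the cell type markers. By Xist and Y-linked probe sets, females made up 4 of 6 samples in each of wt and aSYN, 3 of the Hsp70 and 2 of the aSYN/Hsp70 samples. Pgk1, Pdha1 and Idh3g of the list lie on the X chromosome. In bulk tissue, fewer cells of a type and less RNA per cell cannot be told apart.

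The 3 members whose groups lay farthest apart, or came nearest to the threshold, were the hexokinase Hk2, the lactate carrier Slc16a1 and the phosphoglycerate kinase Pgk1. Glycolytic genes, Pgk1 and Hk2 among them, are known targets of hypoxia-inducible factors, whose response element has ACGTG at its core, and the upstream sequences of these 3 show where that core sits before each gene. The sequences below are the 250 bases before the gene's start in RefSeq on GRCm38.p6, written 5′ to 3′ along the gene's own strand. Capitals mark ACGTG read on either strand, so that CACGT in capitals is the core on the opposite strand and CACGTG, an E-box, holds it on both.
Pgk1, chrX:106186850-106187099, plus strand: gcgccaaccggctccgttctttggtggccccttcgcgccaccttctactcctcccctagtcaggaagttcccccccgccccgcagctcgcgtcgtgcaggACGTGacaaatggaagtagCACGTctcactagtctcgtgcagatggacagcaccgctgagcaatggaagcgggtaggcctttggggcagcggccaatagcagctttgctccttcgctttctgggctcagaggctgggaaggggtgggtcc
Hk2, chr6:82774455-82774704, minus strand: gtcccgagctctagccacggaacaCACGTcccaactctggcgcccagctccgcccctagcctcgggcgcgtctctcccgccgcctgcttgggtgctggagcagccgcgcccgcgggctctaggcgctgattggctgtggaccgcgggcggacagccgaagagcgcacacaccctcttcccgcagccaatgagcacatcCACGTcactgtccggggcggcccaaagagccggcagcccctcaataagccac
Slc16a1, chr3:104638414-104638663, plus strand: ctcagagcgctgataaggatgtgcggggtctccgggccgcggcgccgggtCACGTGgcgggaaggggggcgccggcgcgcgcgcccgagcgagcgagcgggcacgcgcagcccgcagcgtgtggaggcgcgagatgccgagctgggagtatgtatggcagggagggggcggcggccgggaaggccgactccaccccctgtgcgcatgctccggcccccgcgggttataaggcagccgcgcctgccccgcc
The core begins 150 and 131 bases before the start of Pgk1 and 226 and 52 bases before that of Hk2. In Slc16a1 it lies in an E-box that begins 200 bases before the start.

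A promoter entry existed for 37 of the member genes, with 56 start sites in all. ACGTG was present on either strand in 21 of these 56 windows (37.5%), against 16.6% of 32851 windows of all genes. The E-box CACGTG, which is counted in ACGTG as well, was present in 14.3% of member windows and 6.02% of all. The GC box GGGCGG was found in 48.2% and 32.7%, and TATAAA in 1.79% and 12.4%, again on either strand. Member windows were also richer in G and C, at 59.5% against 53.2%. Several windows belong to the same gene and overlap, and a match of letters is a description only.

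None of the 35 members was called in any of the 5 comparisons between groups or in the interaction, and none of their 71 probe sets was. The background was as low in most of them. Of all 27022 probe sets, 0.0037% (1) were called for aSYN against wt, 0.718% (194) for aSYN/Hsp70 against aSYN and 0% in the rest. Of the 12929 genes, 0% were called for aSYN against wt, Hsp70 against wt, aSYN/Hsp70 against wt, aSYN/Hsp70 against Hsp70 and the interaction, and 0.333% (43 genes) were called for aSYN/Hsp70 against aSYN. At an unadjusted limma p under 0.05 there were 1, 2, 8, 3 and 1 members in those 5, and 6 in aSYN/Hsp70 against aSYN. Groups overlapped in every comparison for 34 of the 35 genes.

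**Figure D1:**
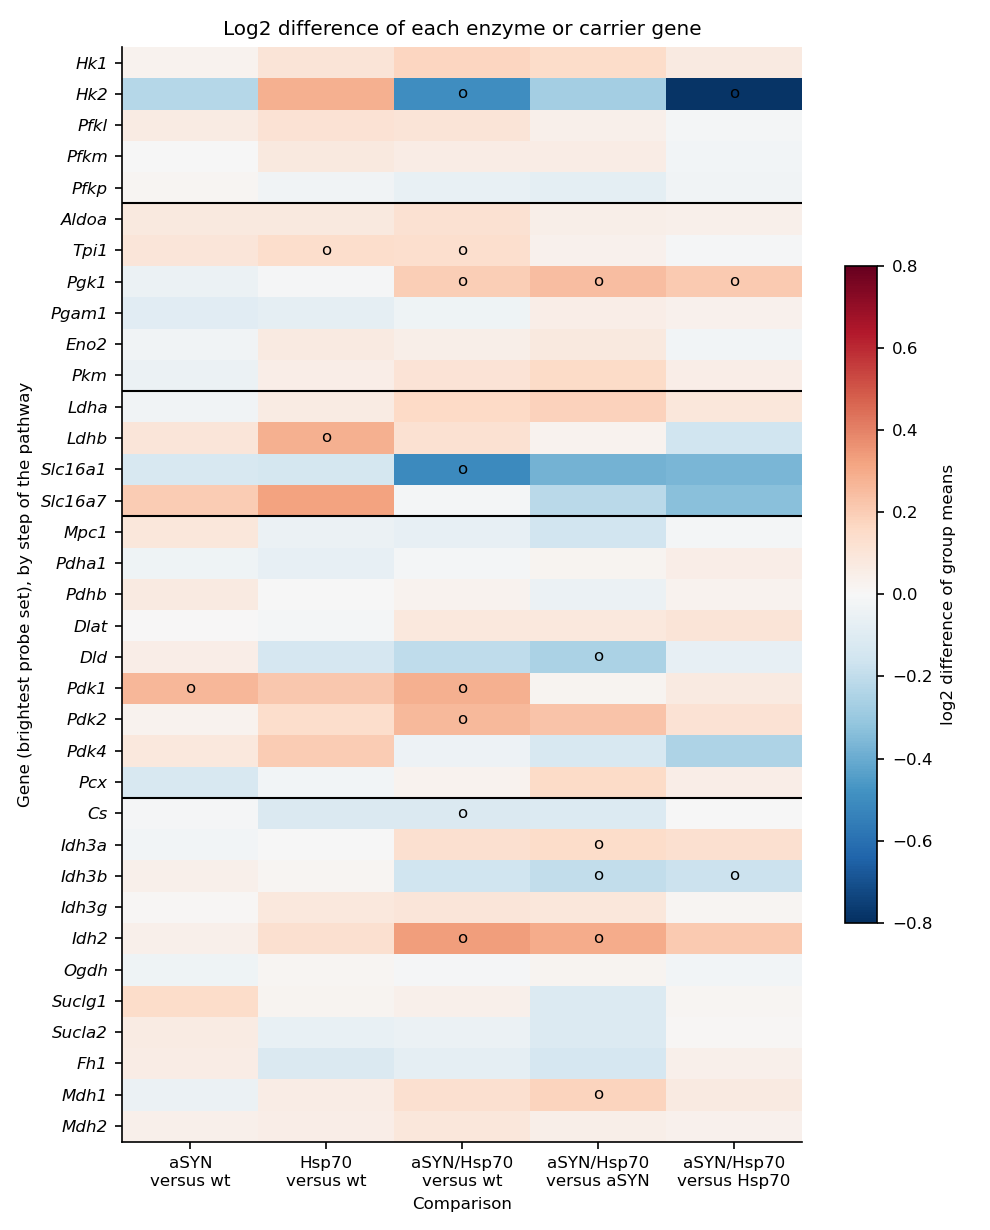
Log2 differences of the 35 measured members (vertical axis, ordered by role) in the 5 comparisons between groups (horizontal axis), as a colour scale in log2 units; a circle marks an unadjusted limma p under 0.05. Most cells are near 0, and the deepest colours belong to Hk2 (-0.78 in aSYN/Hsp70 against Hsp70) and Slc16a1 (-0.51 in aSYN/Hsp70 against wt).

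The enzymes, each read by its brightest probe set, were bright on these arrays and varied less than genes at large. Their median mean level was 14.83 log2 units, against 11.53 over all genes tested, and their median SD within groups was 0.114 against 0.252. Members of low level varied more: the SD was 0.35 in Hk2 (level 9.58), 0.37 in Slc16a7 (9.38) and 0.37 in Pdk4 (10.62). It was widest in Slc16a1, at 0.39 (level 12.78). Members were not set against genes of a like level, so the part of brightness in their small spread was not tested. Group means of the same gene spanned a median of 0.151 log2 units in the members and 0.263 in all genes. The span was under 0.2 in 25 of the 35 and above 0.5 in only 2 of them, Hk2 (0.782) and Slc16a1 (0.506). It was smallest in Ogdh, a subunit of 2-oxoglutarate dehydrogenase, at 0.045, although by a second probe set Ogdh was at -0.72 in aSYN/Hsp70 against wt (SE 0.35, limma adjusted p = 0.341). The 95% interval of the difference lay within 0.5 log2 units on either side of 0 for 31 members in aSYN against wt, 30 in Hsp70 against wt, 30 in aSYN/Hsp70 against wt, 30 in aSYN/Hsp70 against aSYN and 31 in aSYN/Hsp70 against Hsp70. It lay within 1 log2 unit for all 35 in each of these except aSYN/Hsp70 against Hsp70, where 34 did and Hk2 reached -1.19.

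aSYN brains held nearly wild-type levels of these transcripts. In aSYN against wt, 21 members were higher and 14 lower, with a median of 0.03 log2 units against 0.01 over all genes. The single member with an unadjusted p under 0.05, where 4.39% of all genes had one, was Pdk1. Pdk1, a kinase that switches pyruvate dehydrogenase off, differed by 0.26 (SE 0.11, adjusted p = 0.846), and the next 4 by p were Tpi1 (0.10), Pgam1 (-0.09), Suclg1 (0.15) and Pcx (-0.13), each at an adjusted p of 1. Aldoa was the one member whose 6 arrays did not overlap between groups: it ran from 16.54 to 16.64 in wt and from 16.65 to 16.69 in aSYN. That difference was 0.08 (SE 0.06, adjusted p = 1), and 0.781% of all genes had groups without overlap in this comparison.

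Hsp70 brains were as close to wt. In Hsp70 against wt, 21 members were higher and 14 lower, with a median of 0.05 against 0.01 over all genes, and 2 had an unadjusted p under 0.05, beside 4.73% of all genes. These were the triose phosphate isomerase Tpi1 (0.14, SE 0.06) and the lactate dehydrogenase subunit Ldhb (0.28, SE 0.12), both at an adjusted p of 0.881. Cs (-0.11), Pdk1 (0.21) and the monocarboxylate carrier Slc16a7 (0.32) followed, also at 0.881. Without the 4 arrays that stood apart, the members stood 19 higher to 16 lower, with a median of 0.0026 against 0.0043 over all genes. Tpi1 (0.12) alone kept an unadjusted p under 0.05 in that fit, beside 3.36% of all genes, and Ldhb differed by 0.14. Groups overlapped for all 35 members, where 0.217% of all genes had no overlap.

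The combined genotype had more members with a small p, as it had among genes at large. In aSYN/Hsp70 against wt, 21 members were higher and 14 lower (median 0.05, against -0.01 over all genes), and 8 of 35 had an unadjusted p under 0.05, beside 14.6% of all genes. Higher among these were Pgk1 (0.20), Idh2 (0.33), Pdk1 (0.28), Pdk2 (0.26) and Tpi1 (0.13), and lower were Hk2 (-0.50), Slc16a1 (-0.51) and Cs (-0.12), at adjusted p from 0.291 to 0.338. With the 4 arrays left out, 1 of the 35 kept an unadjusted p under 0.05, beside 8.02% of all genes: Hk2, at -0.43. In that fit Slc16a1 differed by -0.13, Pgk1 by 0.08, Idh2 by 0.17, Pdk1 by 0.18 and Pdk2 by 0.12. Groups overlapped for all 35, where 0.843% of all genes had no overlap.

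In aSYN/Hsp70 against aSYN, 22 members were higher and 13 lower, with a median of 0.03 against -0.01 over all genes. An unadjusted p under 0.05 was found for 6 members, beside 18.1% of all genes. Pgk1 came nearest to a call, at 0.25 (SE 0.07, adjusted p = 0.098). Idh3b (-0.20, adjusted p = 0.185), Idh3a (0.15, 0.206), Idh2 (0.30, 0.208), Dld (-0.25, 0.21) and Mdh1 (0.18, 0.219) followed. Leaving out the 4 arrays, the members stood 14 higher to 21 lower, with a median of -0.01, and 3 had an unadjusted p under 0.05 beside 11.4% of all genes: Pgk1 (0.13), Pcx (0.19) and Pfkl (-0.14, in place of 0.04 with all arrays). Groups overlapped for all 35, where 1.79% of all genes had no overlap.

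aSYN/Hsp70 against Hsp70 gave 20 members higher and 15 lower (median 0.02, against -0.01 over all genes), with an unadjusted p under 0.05 in 3 of 35 and in 8.33% of all genes. These were Hk2 (-0.78, adjusted p = 0.215), Pgk1 (0.21, 0.386) and Idh3b (-0.17, 0.496), before Idh3a (0.13, 0.535) and Slc16a1 (-0.36, 0.61). Without the 4 arrays the members stood 17 higher to 18 lower, with a median of -0.0018 against 0.0048 over all genes. Hk2 (-0.48) alone had an unadjusted p under 0.05 there, beside 6.31% of all genes, while Pgk1 differed by 0.12, Idh3b by -0.09 and Slc16a1 by -0.13. The interaction, the change from Hsp70 to aSYN/Hsp70 less that from wt to aSYN, gave 16 higher and 19 lower. Its 1 member with an unadjusted p under 0.05, beside 6.26% of all genes, was Pgk1 (0.25, SE 0.10, adjusted p = 0.547), followed by Hk2 (-0.56, 0.626), Idh3b (-0.21, 0.646), Slc16a7 (-0.54, 0.672) and Idh3a (0.15, 0.704). Without the 4 arrays it gave 14 higher and 21 lower, with Pgk1 at 0.17, Hk2 at -0.25 and Idh3b at -0.13. These comparisons share arrays, so Pgk1, Hk2 and the Idh3 subunits come back in several of them through the same 6 aSYN/Hsp70 samples. In each comparison, the 5 members with the smallest p kept the sign of their difference without quantile normalisation and without the 4 arrays.

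The first steps, from hexose to fructose bisphosphate, were measured in Hk1, Hk2, Pfkl, Pfkm and Pfkp. Hk2, a hexokinase that binds mitochondria and is known mainly from muscle and fat, lies at chromosome 6, 82725025 to 82774454 (GRCm38.p6). It ran from 9.13 over a median of 9.61 to 10.13 in wt, from 8.86 over 9.53 to 9.82 in aSYN, from 9.53 over 9.86 to 10.49 in Hsp70, and from 8.80 over 9.17 to 9.55 in aSYN/Hsp70. The aSYN/Hsp70 arrays were the low ones, with 5 of 6 below the lowest Hsp70 array and 3 of 6 below the lowest wt array. The aSYN arrays overlapped wt, with 1 of 6 below its lowest.

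The difference of Hk2 between aSYN/Hsp70 and Hsp70 was -0.78 (SE 0.20, 95% interval -1.19 to -0.37, limma adjusted p = 0.215). It was -0.48 without the 4 arrays, as Hsp70 replicate 3 had the highest value and aSYN/Hsp70 replicate 3 the lowest. Without quantile normalisation it was -0.62 against Hsp70 and -0.29 against wt, where the quantile normalised value was -0.50. Being dim, Hk2 is also a gene whose differences the added 16 understates.

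By their brightest probe sets, the other 4 genes of these steps stayed within 0.18 of wt in every group. The 3 probe sets of Pfkl, however, ran from 0.05 to 0.47 in aSYN against wt. Those of Pfkp ran from -0.34 to 0.07 in aSYN/Hsp70 against wt. In aSYN/Hsp70 against aSYN, Pfkl probe sets ran from -0.28 to 0.15. The values that follow are again those of the brightest probe sets. Hk1, known as the main hexokinase of brain, differed from wt by 0.17 in aSYN/Hsp70 (0.06 without aSYN/Hsp70 replicate 4), 0.11 in Hsp70 (-0.02 without the 4 arrays) and 0.03 in aSYN. The liver, muscle and platelet forms of phosphofructokinase differed between aSYN/Hsp70 and aSYN by 0.04 (Pfkl, -0.14 without the 4 arrays), 0.06 (Pfkm) and -0.08 (Pfkp). Of the 5 genes, 4 were higher in Hsp70 than in wt (3 without the 4 arrays), and 4 were lower in aSYN/Hsp70 than in Hsp70 (3 without quantile normalisation, and all 5 without aSYN/Hsp70 replicate 4).

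**Figure D2:**
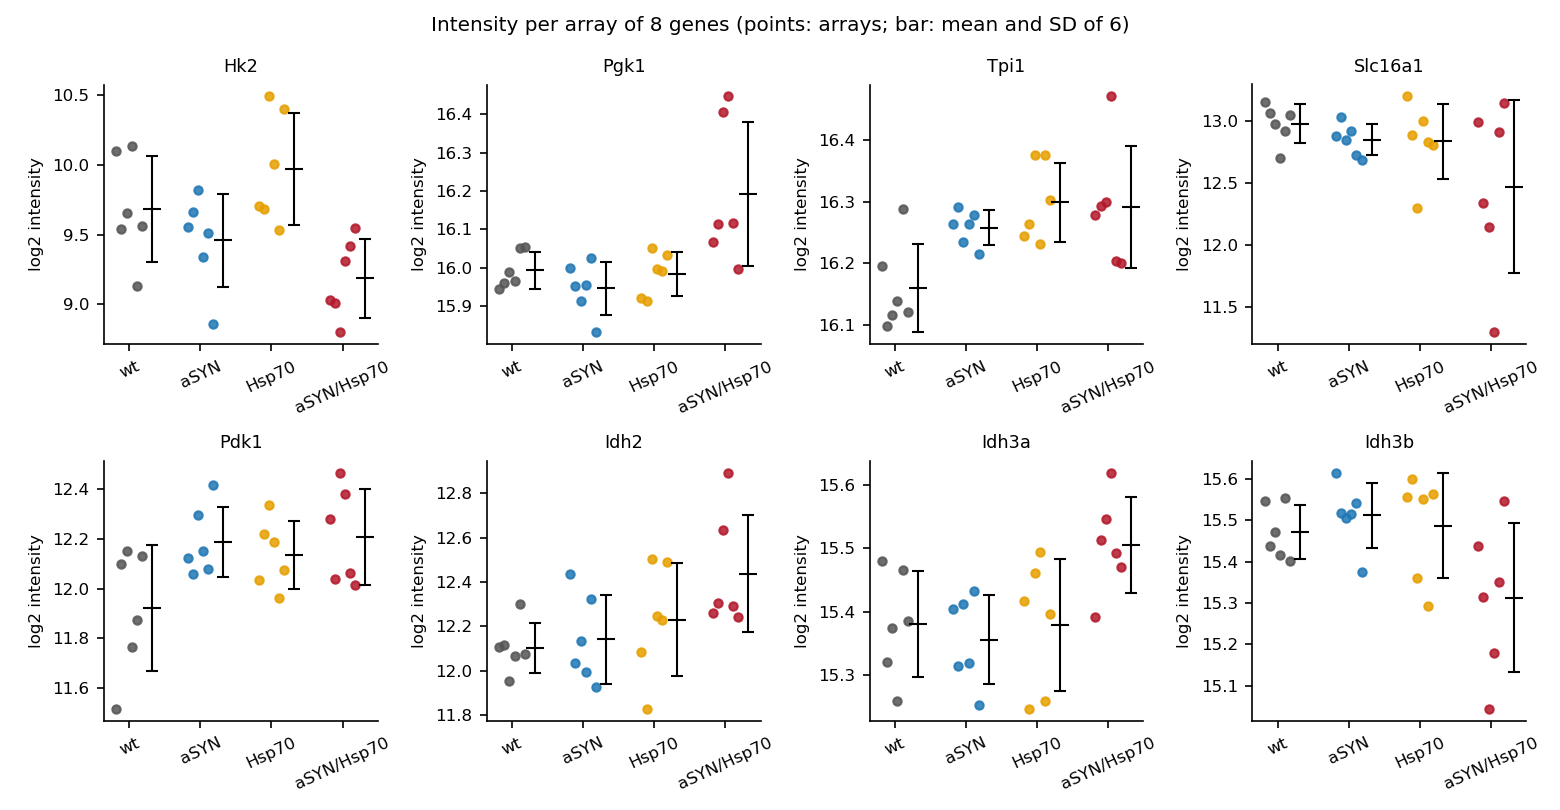
Log2(intensity + 16) after quantile normalisation (vertical axes) of 8 member genes in each of the 24 arrays, by group (horizontal axes); points are arrays, and the bar and whiskers are the mean and SD of 6. For Pgk1, 5 of the 6 aSYN/Hsp70 points sit above every point of the other groups, while for Slc16a1 a single aSYN/Hsp70 point lies at 11.30, far under the rest.

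In the triose steps, Pgk1 stood apart from the other enzymes. It makes ATP from 1,3-bisphosphoglycerate and lies at chromosome X, 106187100 to 106203699. Its probe set ran from 15.94 over a median of 15.98 to 16.05 in wt, from 15.83 over 15.95 to 16.02 in aSYN, from 15.91 over 15.99 to 16.05 in Hsp70, and from 15.998 over 16.11 to 16.45 in aSYN/Hsp70. The first 3 groups overlapped almost fully, while 5 of 6 aSYN/Hsp70 arrays were above the highest array of each of them. The excess was largest in aSYN/Hsp70 replicates 4 (16.45) and 3 (16.41).

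Against aSYN, the difference of Pgk1 was 0.25 (95% interval 0.09 to 0.40, limma adjusted p = 0.098). Without aSYN/Hsp70 replicate 4 it was 0.19 (adjusted p = 0.195), and without the 4 arrays it was 0.13 (adjusted p = 0.303). It was called only with a trended and robust variance (adjusted p = 0.042) and, at 0.28, without aSYN/Hsp70 replicate 6 (0.041). With the sex covariate the difference was 0.24 (adjusted p = 0.157). Over the 10 alternatives other than leaving out 1 array, it ran from 0.13 to 0.35. Its other 2 probe sets differed by 0.11 and 0.08, with unadjusted p of 0.227 and 0.568.

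Tpi1, which interconverts the triose phosphates, had 1 high array in wt and 1 in aSYN/Hsp70. It ran from 16.10 over a median of 16.13 to 16.29 in wt, from 16.21 over 16.26 to 16.29 in aSYN, from 16.23 over 16.28 to 16.38 in Hsp70, and from 16.20 over 16.29 to 16.47 in aSYN/Hsp70. All 6 arrays of each of the other groups lay above the wt mean, yet all groups overlapped wt. The differences from wt were 0.10, 0.14 and 0.13 (SE 0.06 each, limma adjusted p = 1, 0.881 and 0.326). The 3 tested probe sets of Tpi1 did not share a sign. In the same order, another of them differed from wt by 0.08, -0.19 and -0.14, and the last by 0.0077, 0.06 and 0.06.

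All 6 triose and pyruvate genes tested were higher in aSYN/Hsp70 than in aSYN, by 0.03 (Tpi1) to 0.25 (Pgk1), with a median of 0.07. This count was also 6 of 6 without quantile normalisation, with a larger median of 0.21. It was 4 of 6 without aSYN/Hsp70 replicate 4 (median 0.07), and 4 of 6 without the 4 arrays (median 0.06), where Tpi1 differed by -0.01 and Aldoa by -0.03. Pkm, the pyruvate kinase of brain and muscle, differed by 0.15 (0.07 without the 4 arrays, adjusted p = 0.268 with them), the neuronal enolase Eno2 by 0.08, the phosphoglycerate mutase Pgam1 by 0.05 and the aldolase Aldoa by 0.05. None passed the test. In aSYN against wt the same genes stood 2 higher to 4 lower, with a median of -0.04.

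Gapdh, which oxidises glyceraldehyde 3-phosphate, was read by control probe sets for the 5′ part, the middle and the 3′ part of its transcript. Its group means were 17.30 to 17.34 for the 5′ part, 17.21 to 17.22 for the middle and 17.04 to 17.06 for the 3′ part. No exact permutation test of these gave an adjusted p under 1 over the 35 tests of control probe sets.

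Lactate handling was read by Ldha and Ldhb, whose subunits form lactate dehydrogenase, and by the carriers Slc16a1, known from endothelium and glia, and Slc16a7, the high-affinity neuronal form. Slc16a1 (chromosome 3, 104638664 to 104658462) ran from 12.71 over a median of 13.01 to 13.16 in wt and from 12.69 over 12.87 to 13.03 in aSYN. It ran from 12.30 over 12.86 to 13.20 in Hsp70 and from 11.30 over 12.63 to 13.14 in aSYN/Hsp70. Replicates 4 (11.30), 3 (12.14) and 2 (12.34) of aSYN/Hsp70 lay below the lowest wt array, and the other 3 lay within the range of wt.

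Against wt, Slc16a1 differed by -0.51 (SE 0.22, limma adjusted p = 0.322) in aSYN/Hsp70. Without aSYN/Hsp70 replicate 4 this became -0.27, and without the 4 arrays -0.13. Against Hsp70 the values were -0.36, -0.13 and -0.13 in the same order. Ldhb was highest in Hsp70, with a range of 15.69 to 16.49 against 15.67 to 16.02 in wt. In 5 of 6 Hsp70 arrays it was above the highest wt array, although the lowest Hsp70 array lay inside the wt range.

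Ldha differed by less than 0.19 in each comparison, and Slc16a7 was dim, with group medians of 9.37, 9.67, 9.54 and 9.37 in wt, aSYN, Hsp70 and aSYN/Hsp70. Of these 4 genes, 3 were lower in aSYN/Hsp70 than in Hsp70 (median -0.25), as without quantile normalisation, and all 4 were lower without aSYN/Hsp70 replicate 4 (median -0.14) or without the 4 arrays (-0.11). None passed the test.

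Entry of pyruvate into mitochondria was read by the carrier subunit Mpc1, the pyruvate dehydrogenase complex (Pdha1, Pdhb, Dlat and Dld), its inhibiting kinases (Pdk1, Pdk2 and Pdk4) and pyruvate carboxylase (Pcx). By its brightest probe set, Pdha1 differed by at most 0.07 between any groups compared, and its 95% interval of 0.115 on either side was the narrowest of all members. Pdhb differed by at most 0.0738 and Dlat by at most 0.103 on the same basis. The second probe sets of Pdha1 and Pdhb differed more, by 0.23 and -0.47 in aSYN/Hsp70 against aSYN. Dld, the lipoamide dehydrogenase that several complexes share, was lower in aSYN/Hsp70 than in aSYN by 0.25 (SE 0.11, limma adjusted p = 0.21), a value that was -0.13 without the 4 arrays.

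By its brightest probe set, Pdk1 was lower in wt than in the other groups. It ran from 11.52 over a median of 11.99 to 12.15 in wt, from 12.06 over 12.14 to 12.42 in aSYN, from 11.96 over 12.13 to 12.34 in Hsp70, and from 12.01 over 12.17 to 12.46 in aSYN/Hsp70. In each of these 3 groups all 6 arrays were above the wt mean and 3 were above the highest wt array. The 3 differences, 0.26, 0.21 and 0.28, share the same 6 wt arrays, of which replicate 1 was the lowest. Without wt replicate 1 the first became 0.18 and the second 0.13. The 4 tested probe sets of Pdk1 had both signs against wt, from -0.11 to 0.62 for aSYN, from -0.07 to 0.63 for Hsp70 and from -0.34 to 0.28 for aSYN/Hsp70.

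Pdk2, the kinase isoform widely found in brain, differed from wt by 0.26 in aSYN/Hsp70, 0.14 in Hsp70 and 0.03 in aSYN. Without the 4 arrays the first was 0.12 and the second 0.02. Pdk4, the isoform known from fasting, varied more between arrays, from 9.94 to 11.44, and differed by -0.25 to 0.20 with no adjusted p under 0.727. Of the 9 genes of pyruvate entry that were tested, 7 were higher in aSYN than in wt, 3 in Hsp70 than in wt (5 without the 4 arrays) and 5 in aSYN/Hsp70 than in aSYN. The last count was 4 without quantile normalisation and 3 without aSYN/Hsp70 replicate 4.

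Pcx, which carboxylates pyruvate to oxaloacetate and is known in brain from astrocytes, was the one member read along its transcript by control probe sets and by a tested probe set as well. It lies at chromosome 19, 4510472 to 4621752. The 5′ control set ran from 9.91 over a median of 10.23 to 10.52 in wt, from 9.58 over 9.89 to 10.14 in aSYN, from 9.80 over 10.18 to 10.35 in Hsp70, and from 10.13 over 10.34 to 10.58 in aSYN/Hsp70. The first of the middle sets ran from 10.35 to 10.80 in wt, 10.12 to 10.33 in aSYN, 10.20 to 10.78 in Hsp70 and 10.23 to 10.83 in aSYN/Hsp70. The aSYN arrays were the low ones in both, and in the first middle set they did not overlap wt. By brightest probe sets, 0.781% of all genes had groups without overlap in aSYN against wt. The share over control probe sets was not counted.

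**Figure D3:**
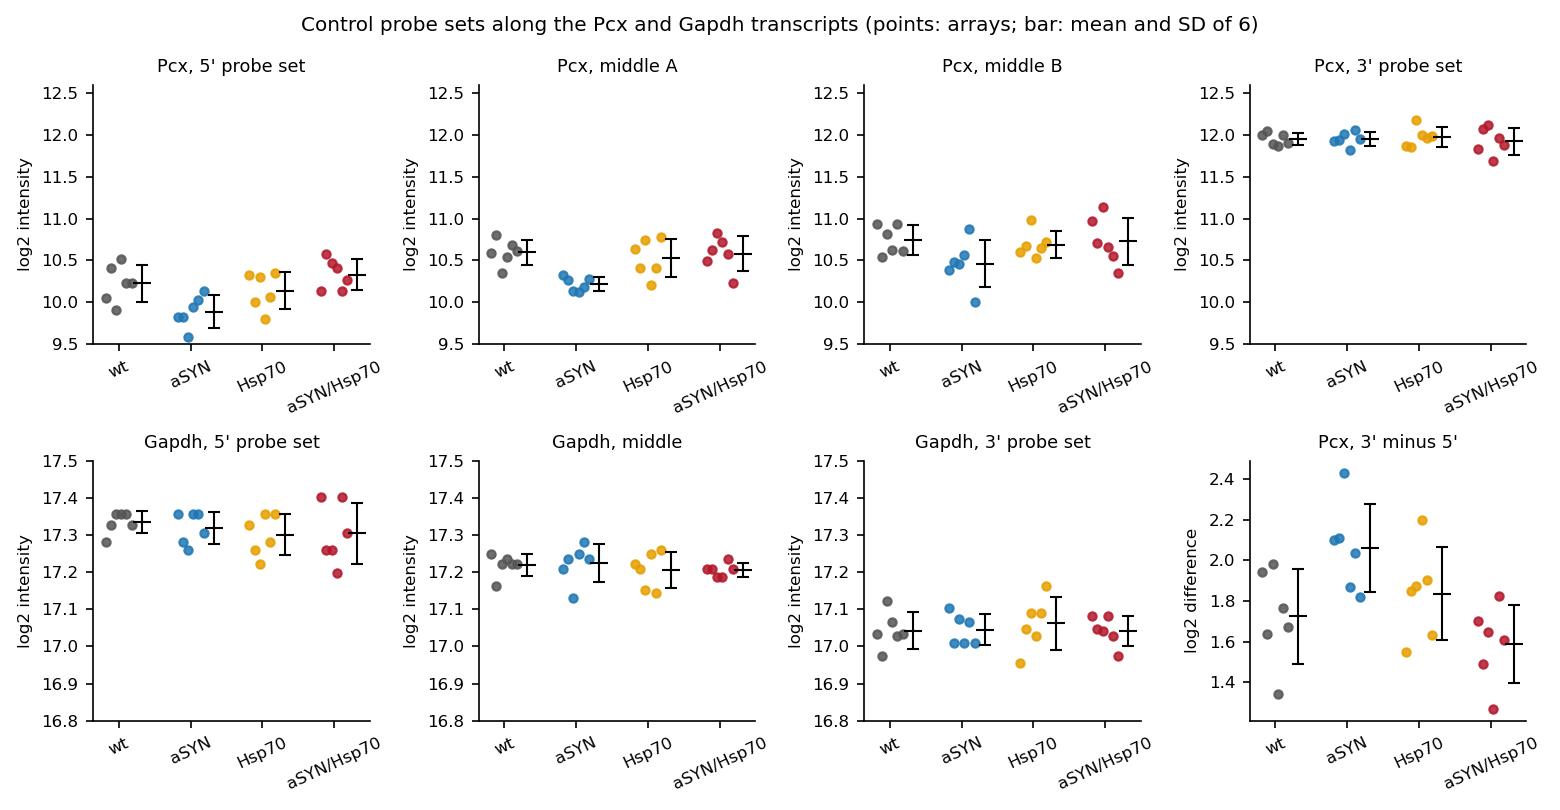
Log2 levels of the Pcx control probe sets (5′, middle A, middle B and 3′) and the Gapdh control probe sets (5′, middle and 3′), and the 3′ minus 5′ difference of Pcx (vertical axes, log2 units), by group (horizontal axes); points are arrays, and the bar and whiskers are the mean and SD of 6. The aSYN points of Pcx are low in the 5′ and middle panels and level with the other groups in the 3′ panel.

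The first middle set of Pcx differed by -0.38 in aSYN against wt (exact two-sided permutation p = 0.00216, the smallest that 6 against 6 can give, and adjusted p = 0.0758 over 35 tests). The 5′ set differed by -0.34 (exact p = 0.0238, adjusted p = 0.208). Between aSYN/Hsp70 and aSYN the 5′ set differed by 0.44 (exact p = 0.00649) and the first middle set by 0.36 (exact p = 0.00866), both at an adjusted p of 0.101. The second middle set differed less, by -0.28 in aSYN against wt (exact p = 0.05195, adjusted p = 0.3637). Between aSYN/Hsp70 and aSYN it differed by 0.27 (exact p = 0.1385, adjusted p = 0.6925). The 3′ set did not show these differences, with group means of 11.95 in both wt and aSYN, 11.97 in Hsp70 and 11.92 in aSYN/Hsp70. None of these passed after adjustment.

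The 3′ minus 5′ signal of Pcx, a common measure of how complete the labelled RNA was, averaged 2.06 ± 0.22 in aSYN, 1.83 ± 0.23 in Hsp70, 1.72 ± 0.23 in wt and 1.59 ± 0.19 in aSYN/Hsp70 (SD, n = 6). The difference between aSYN/Hsp70 and aSYN was -0.47 (exact two-sided permutation p = 0.00433, adjusted p = 0.052 over 12 tests). Without aSYN replicate 6 it was -0.52, with an adjusted p of 0.026. This was the 1 fit under 0.05 of the 12 that left out an array, and the highest adjusted p among them was 0.13. For Gapdh the group means of the same signal lay between -0.29 and -0.24 (SD up to 0.10), with no adjusted permutation p under 0.587. The Gapdh control sets were much brighter than those of Pcx, with group means of 17.04 to 17.34. Whether they could show such a difference was not tested. The tested Pcx probe set differed by -0.13 in aSYN against wt and by 0.15 in aSYN/Hsp70 against aSYN (limma adjusted p = 1 and 0.318). The part of RNA completeness in the differences of other members was not tested.

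In the citric acid cycle, the NAD-dependent isocitrate dehydrogenase gave opposite signs for its subunits. The catalytic subunit Idh3a ran from 15.25 over a median of 15.36 to 15.43 in aSYN and from 15.39 over 15.50 to 15.62 in aSYN/Hsp70, with 5 of 6 aSYN/Hsp70 arrays above every aSYN array. The subunit Idh3b ran from 15.37 over 15.52 to 15.61 in aSYN and from 15.04 over 15.33 to 15.55 in aSYN/Hsp70, with 4 of 6 below every aSYN array. The differences were 0.15 for Idh3a and -0.20 for Idh3b (limma adjusted p = 0.206 and 0.185), and 0.09 for Idh3g. The 4 arrays left out, they were 0.11 for Idh3a and -0.10 for Idh3b. With all arrays, however, the 4 tested probe sets of Idh3a ran from -0.25 to 0.44, and the second of Idh3b differed by -0.02. Probe sets of 1 subunit thus differed by more than the subunits did.

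Idh2, the mitochondrial NADP-dependent isocitrate dehydrogenase, was highest in aSYN/Hsp70. It ran from 11.95 over a median of 12.09 to 12.30 in wt, from 11.93 over 12.08 to 12.44 in aSYN, from 11.83 over 12.24 to 12.50 in Hsp70 and from 12.24 over 12.30 to 12.89 in aSYN/Hsp70. All 6 aSYN/Hsp70 arrays were above the mean of each other group, and 3 were above the highest wt array. The difference from wt was 0.33 (SE 0.13, limma adjusted p = 0.297), and 0.17 without the 4 arrays.

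Cs, citrate synthase and the entry step of the cycle, lay below the wt mean in all 6 Hsp70 and all 6 aSYN/Hsp70 arrays by its brightest probe set, by 0.11 and 0.12 on average (SE 0.06, limma adjusted p = 0.881 and 0.338). Its other 2 probe sets differed from wt by 0.04 and 0.0020 in Hsp70 and by -0.02 and 0.08 in aSYN/Hsp70. By their brightest probe sets, Ogdh, Mdh2, Sucla2, Fh1 and Idh3g differed by at most 0.132 in any comparison between groups, and Suclg1 by at most 0.149. Of the 11 cycle and malate shuttle genes, 6 were higher in aSYN/Hsp70 than in aSYN, a count of 5 without quantile normalisation. In Hsp70 against wt 7 were higher, and 4 without the 4 arrays.

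Mdh1, the cytosolic malate dehydrogenase of the malate-aspartate shuttle (chromosome 11, 21556692 to 21571934), depended on the probe set. The brightest ran from 16.53 over a median of 16.61 to 16.79 in aSYN and from 16.64 over 16.78 to 17.07 in aSYN/Hsp70, a difference of 0.18 (limma adjusted p = 0.219) that was 0.40 without quantile normalisation and 0.11 without the 4 arrays. Probe set 1454925_x_at of the same gene ran from 15.95 over 16.11 to 16.77 in aSYN and from 15.03 over 15.54 to 15.85 in aSYN/Hsp70. There all 6 aSYN/Hsp70 arrays lay below the lowest aSYN array, and the difference was -0.73 (SE 0.21, adjusted p = 0.0925), the smallest adjusted p of any member probe set. By brightest probe sets, 1.79% of all genes had groups without overlap in this comparison. The share over all probe sets was not counted. The remaining 2 probe sets of Mdh1 differed by -0.39 and -0.16. Without the 4 arrays, 1454925_x_at differed by -0.51 (adjusted p = 0.263). Probe sets ending in x_at can read related transcripts, and 16 of the 71 tested member probe sets end so or in s_at.

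Such disagreement was common. Of the 19 member genes with more than 1 tested probe set, 12 had both signs among them in aSYN/Hsp70 against aSYN, 9 in aSYN against wt, 13 in Hsp70 against wt, 11 in aSYN/Hsp70 against wt and 10 in aSYN/Hsp70 against Hsp70. Over all probe sets, 16 of 71 had an unadjusted p under 0.05 in aSYN/Hsp70 against aSYN, beside 19.6% of all 27022. The second probe sets with an unadjusted p under 0.01, that of Mdh1 above among them, were chosen after their values were seen. For Aldoa, 1447734_x_at differed by 0.47 (adjusted p = 0.12) where its other 4 differed by 0.01 to 0.07. For Pfkp, 1430634_a_at differed by 0.36 (adjusted p = 0.136) where its other 2 differed by -0.08 and -0.13. Without the 4 arrays these became 0.28 for both genes. The exons that each probe set reads were not analysed here.

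**Figure D4:**
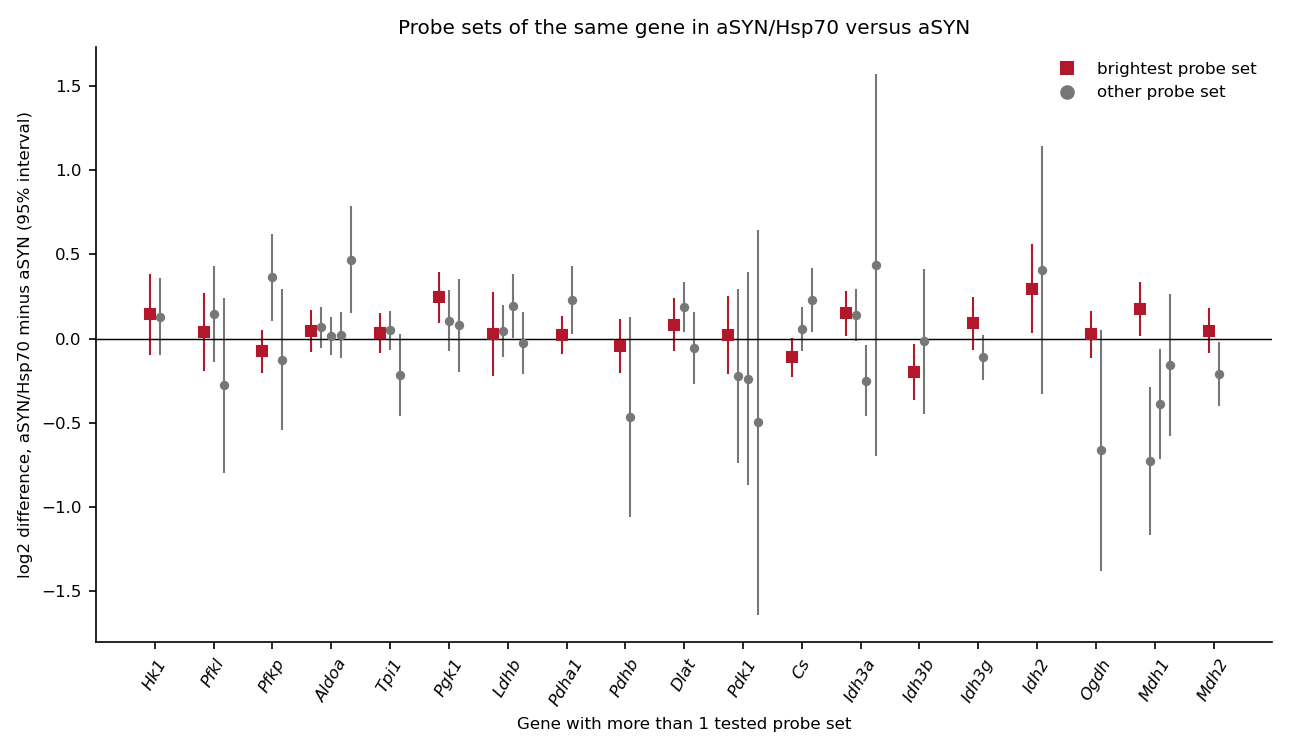
Log2 differences of aSYN/Hsp70 against aSYN (vertical axis) for every tested probe set of the 19 member genes that have more than 1 (horizontal axis). Lines are limma 95% intervals and red squares mark the brightest probe set of each gene. Probe sets of Mdh1 fall on both sides of 0, from -0.73 to 0.18.

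A single array gave many of the highest values. aSYN/Hsp70 replicate 4 was the highest of all 24 arrays in 16 of the 35 members (45.7%), against 19.8% of all genes, and the lowest in 3 (8.57%), against 23%. The 16 were Hk1, Pfkl, Pfkm, Aldoa, Tpi1, Pgk1, Pkm, Ldha, Pdha1, Pdhb, Dlat, Pdk2, Idh2, Idh3a, Mdh1 and Mdh2, and the 3 were Slc16a1, Mpc1 and Fh1. No other array was the highest in more than 4 members. Taken as the median over the 35 genes of each array's difference from the wt mean, the arrays ran from -0.03 to 0.05 in wt, -0.06 to 0.09 in aSYN, -0.03 to 0.15 in Hsp70 and 0.01 to 0.16 in aSYN/Hsp70, with replicate 4 at 0.16. Without that array the median member difference between aSYN/Hsp70 and aSYN was -0.00135, against 0.03 with it.

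**Figure D5:**
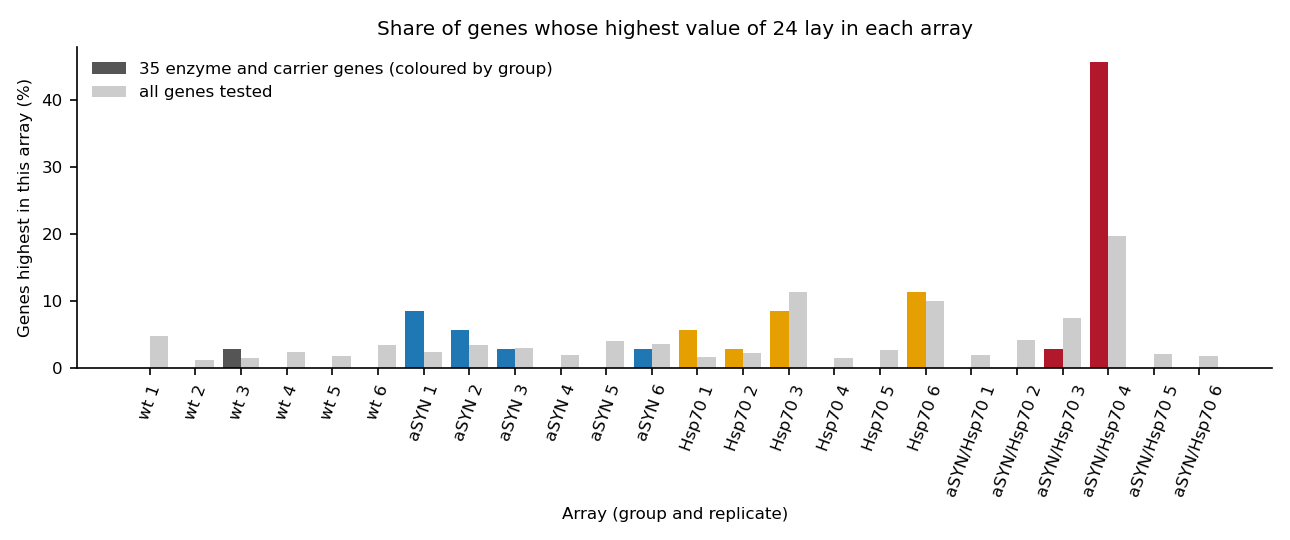
Share of genes (vertical axis, percent) whose highest value of all 24 arrays fell in each array (horizontal axis, by group), for the 35 members (coloured) and for all 12929 genes (grey). The tallest pair of bars is aSYN/Hsp70 replicate 4, at 45.7% of the members and 19.8% of all genes.

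Other genes of the same pathways were read from a second list of 48, of which 41 were tested and 0 were called in any comparison. In aSYN/Hsp70 against aSYN, 22 of these were higher and 19 lower (median 0.01), and 8 (19.5%) had an unadjusted p under 0.05, beside 18.1% of all genes. Among those named after their values were seen, Pdp1, the phosphatase that switches pyruvate dehydrogenase back on, came nearest to a call. It ran from 13.88 over a median of 14.12 to 14.28 in wt, 13.37 over 13.57 to 13.98 in aSYN, 13.84 over 14.05 to 14.25 in Hsp70 and 13.86 over 14.03 to 14.22 in aSYN/Hsp70. The aSYN arrays were the low ones, with overlap. Its difference was -0.46 in aSYN against wt (SE 0.11, limma adjusted p = 0.206) and 0.38 in aSYN/Hsp70 against aSYN (adjusted p = 0.0878).

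Pfkfb2, which sets the level of the phosphofructokinase activator fructose 2,6-bisphosphate, differed by -0.59 in aSYN/Hsp70 against wt (SE 0.17, limma adjusted p = 0.221), a value that was -0.32 without the 4 arrays. It spread from 9.85 to 11.19 in aSYN/Hsp70 and from 10.91 to 11.26 in wt. Slc2a1, the glucose transporter of the blood-brain barrier and astrocytes, differed by -0.27 in aSYN/Hsp70 against aSYN (adjusted p = 0.14). In aSYN against wt, 19 genes of this second list were higher and 22 lower, and 1 had an unadjusted p under 0.05. In Hsp70 against wt these counts were 24, 17 and 2, in aSYN/Hsp70 against wt 18, 23 and 5, and in aSYN/Hsp70 against Hsp70 20, 21 and 3. The shares with an unadjusted p under 0.05 in these 4 comparisons were 2.44%, 4.88%, 12.2% and 7.32% of the list. Over all genes they were 4.39%, 4.73%, 14.6% and 8.33% in the same order.

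Cell type markers were measured beside the members. All 5 oligodendrocyte genes measured (Mal, Mbp, Mobp, Cnp and Mog) were lower in aSYN/Hsp70 than in wt (median -0.33), aSYN (-0.16) and Hsp70 (-0.17), and 0 passed the test. Sums were taken over the deposited linear intensities, without quantile normalisation. The sum of these 5 genes ranged from 252200 to 313600 in aSYN/Hsp70, 278000 to 296400 in wt, 259600 to 281300 in aSYN and 259300 to 330000 in Hsp70. The tight junction gene Cldn5 of endothelium was the one marker called, higher by 0.71 in aSYN/Hsp70 than in aSYN (limma adjusted p = 0.046), and the 6 endothelium genes stood 3 higher to 3 lower (median 0.14), with the transporter Slco1c1 at -0.31 (adjusted p = 0.113). In aSYN against wt all 6 endothelium genes were lower (median -0.20), and 0 passed the test.

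The other medians in aSYN/Hsp70 against aSYN were -0.08 for neuron, 0.13 for astrocyte, 0.06 for microglia and -0.19 for choroid plexus genes, 0.10 for the single red blood cell gene and -0.25 for the 3 skeletal muscle genes. Summed neuron markers ranged from 311100 to 358100 in aSYN/Hsp70 and from 299900 to 336300 in aSYN, and summed astrocyte markers from 170300 to 192300 and from 158200 to 178500. These sums are of deposited intensities that were not quantile normalised, while the medians are of normalised log2 values. For neurons the sums ran higher in aSYN/Hsp70 although the median was -0.08. The part of cell makeup in the member differences was not tested.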

How the data were processed

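The authors' deposited value table holds an intensity on a linear scale for each probe set in each array. How probes were summarised into it is not stated in the sources used here. Every deposited array had a mean of 2500 intensity units without its lowest and highest 2%, and array medians ran from 458 to 893. Intensities were transformed as log2(intensity + 16) and quantile normalised. The 64 control probe sets and the dimmest 40% (18015) were left out, and 27022 of 45101 were tested. Of the 45101, 34958 carried 1 gene symbol, 932 several and 9211 were unnamed here; all 84 member probe sets matched the GRCm38.p6 gene table, which changed 0 symbols.

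The 24 arrays were fitted together with a mean per group, and each comparison was a contrast (limma 3.58.1, R 4.3.3, lmFit and eBayes) with Benjamini-Hochberg adjustment, called at 0.05. Control probe sets were compared by exact two-sided permutation over the 924 splits of 6 against 6, which cannot go below p = 0.00216. The fit was tested on simulated data. The number of arrays limits the precision.

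The members, the lists of other pathway genes and markers, and the tests were chosen with earlier results of these data known. In each comparison the text names called members, then the members with the 5 smallest p-values, then called member probe sets; other names were picked with their values in view, as the text says. Alternatives were no quantile normalisation, offsets of 1 and 256, no filter on dim probe sets, the compared groups only, a replicate block, array weights, no arrays of weight under 0.5, a sex covariate, a trended and robust variance, the mean over a gene's probe sets and each array left out. For control probe sets, leaving out the 4 arrays was added after seeing the data. Promoters are RefSeq's. Figures used matplotlib 3.10.9.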

Additional observations from a re-analysis of the deposited data

Results flagged for a closer look

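Among 188 series of 6 values (a member probe set in 1 group), 13 held an array whose gap to its nearest neighbour was large against the whole range, where about 1 in 20 series does so by chance. All values are log2 units.

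aSYN/Hsp70 replicate 4 was such an array for 3 genes, in each at the high end: the Aldoa probe set 1447734_x_at at 14.26 (next 13.55), Hk1 at 15.27 (next 14.72) and Tpi1 at 16.47 (next 16.3). Hsp70 replicate 3 was high for 3 genes, Idh3g at 15.3 (next 15), Mdh2 at 16.15 (next 15.97) and Pcx at 12.24 (next 12.05). These 2 arrays are also among the 4 with low weights. aSYN replicate 6 was high for Mdh2 at 16.05 (next 15.96) and low for Slc16a7 at 8.47 (next 9.47).

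The other 5 arrays had 1 such value each. Eno2 stood at 16 in aSYN/Hsp70 replicate 3 (next 15.91), the Mdh1 probe set 1454925_x_at at 16.77 in aSYN replicate 2 (next 16.2) and Ogdh at 14.11 in aSYN replicate 5 (next 13.89). Low values were Pfkp at 14.57 in wt replicate 1 (next 14.71) and the middle control set of Gapdh at 17.16 in wt replicate 2 (next 17.22).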

How the results depend on the processing

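In aSYN/Hsp70 against aSYN, the count of members called was 1 (Pgk1) in place of 0 with a trended and robust variance, and 0 to 1 with each array left out, where the 1 was Pgk1 without aSYN/Hsp70 replicate 6. The count of member probe sets called was 1 with the trended and robust variance and 0 to 2 with each array left out, where Mdh1 1454925_x_at (-0.81, limma adjusted p = 0.049) joined Pgk1 without aSYN/Hsp70 replicate 6. The 3′ minus 5′ signal of Pcx in the same comparison ran from -0.519 (without aSYN replicate 6) to -0.396 with each array left out. In the 4 other alternatives run for it, it ran from -0.568 to -0.389, with adjusted permutation p from 0.052 to 0.156. That of Gapdh, near 0 throughout, changed sign in 5 comparisons: with each array left out it ran from -0.00035 to 0.0320 in aSYN against wt, from -0.0172 to 0.0352 in aSYN/Hsp70 against aSYN and from -0.0524 to 4.8e-05 in aSYN/Hsp70 against Hsp70. Without quantile normalisation it was -0.011 in aSYN/Hsp70 against wt and -0.0239 against aSYN. Without the 4 low-weight arrays it was -0.0178 and -0.0352, and 0.0027 in aSYN against Hsp70. Same-numbered arrays did not deviate together (3 of 36 pairs correlated above 0.1, median 0.02); with the replicate block 0 members were called in any comparison, and Pgk1 in aSYN/Hsp70 against aSYN had an adjusted p of 0.122. The member median changed sign in 2 comparisons. In aSYN/Hsp70 against aSYN it was -0.0114 with array weights, -0.0136 without the 4 arrays, -0.0108 with the mean over a gene's probe sets and -0.00135 without aSYN/Hsp70 replicate 4, in place of 0.0336. In aSYN/Hsp70 against Hsp70 it was -0.00184 without the 4 arrays and -0.00813 without aSYN/Hsp70 replicate 4, in place of 0.0162. Apart from the changes above, the member medians, counts of calls and named members kept their direction and side of the threshold in the alternatives run, though several sizes shrank without the 4 arrays. The widest 95% interval was that of Slc16a1, at 0.456 on either side of the difference between groups and 0.645 for the interaction.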
